A study of Mus musculus with 12 samples.

Results

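The 7 genes described here are used to follow neutrophils and their neighbours on the Ly6 locus, here in mouse colon: S100a8, S100a9, Ly6g, Ly6c1, Ly6e, Ly6d and Lcn2. They were taken by name, with no filter on their level, and are 7 of the 22377 genes that the deposited transcript table lists. Messenger RNA was sequenced from 12 colon samples in 3 groups of 4: colon labelled with the treatment FGF1, colon labelled with the treatment DSS, and colon labelled control. FGF1 is fibroblast growth factor 1, which the design text describes as given as recombinant protein to mice with bowel inflammation, and DSS is dextran sulfate sodium, a polymer that injures the colon lining. No sample label names a strain, genotype, age, dose or duration, whether the FGF1 animals also received DSS, or whether samples are separate animals, so p-values measure only the spread between these samples.

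S100a8 and S100a9 form calprotectin, a calcium-binding protein that fills the cytosol of neutrophils, withholds zinc and manganese from microbes, and is measured in stool as a marker of bowel inflammation. Lcn2 encodes lipocalin 2, which binds bacterial siderophores and is made both by neutrophils and by inflamed epithelium. The Ly6 genes encode small surface proteins anchored by a lipid tail: Ly6g marks mouse neutrophils, Ly6c1 marks endothelium and some lymphocytes and belongs with Ly6c2 to the Ly6C antigen of monocytes, Ly6e is broadly expressed and responds to interferon, and Ly6d marks early B lineage cells and stratified epithelium.

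On GRCm38, S100a8 lies on chromosome 3 at 90668978 to 90670035 on the plus strand, and S100a9 at 90692632 to 90695721 on the minus strand. The 4 Ly6 genes lie on chromosome 15: Ly6d at 74762056 to 74763620, Ly6e at 74955051 to 74959905, Ly6c1 at 75044018 to 75048830 and Ly6g at 75155240 to 75159126. Lcn2 lies on chromosome 2 at 32384633 to 32388252. The bases upstream of the annotated start are shown for the calprotectin pair, whose levels moved together, and for Ly6g and Ly6c1, which are related in sequence and whose levels did not. They are written 5′ to 3′ on the strand of the gene from RefSeq (GRCm38.p6), and capitals mark matches on either strand to the C/EBP letters TTGCNNAA or to an NF-kB motif, which is GGG and CC with any 5 bases between them.
S100a8 (chr3:90668821-90668977, plus strand): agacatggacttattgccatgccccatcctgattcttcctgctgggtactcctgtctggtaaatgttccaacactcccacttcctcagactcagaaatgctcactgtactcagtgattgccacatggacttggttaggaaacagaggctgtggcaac
S100a9 (chr3:90695722-90695971, minus strand): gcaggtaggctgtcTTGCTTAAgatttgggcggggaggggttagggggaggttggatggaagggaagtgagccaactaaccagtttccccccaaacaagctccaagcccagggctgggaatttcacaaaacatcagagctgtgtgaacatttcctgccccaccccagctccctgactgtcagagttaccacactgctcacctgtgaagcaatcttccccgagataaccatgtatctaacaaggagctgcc
Ly6g (chr15:75155011-75155239, plus strand): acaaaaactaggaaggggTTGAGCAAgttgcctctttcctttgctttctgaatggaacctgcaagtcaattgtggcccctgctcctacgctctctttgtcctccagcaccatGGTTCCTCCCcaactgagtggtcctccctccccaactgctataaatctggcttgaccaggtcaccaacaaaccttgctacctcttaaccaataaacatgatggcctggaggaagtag
Ly6c1 (chr15:75048838-75049087, minus strand): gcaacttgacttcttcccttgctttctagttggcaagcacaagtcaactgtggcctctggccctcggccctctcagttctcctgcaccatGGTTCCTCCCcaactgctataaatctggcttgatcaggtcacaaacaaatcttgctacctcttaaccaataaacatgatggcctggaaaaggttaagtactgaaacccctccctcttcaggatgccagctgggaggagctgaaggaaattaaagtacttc

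These stretches hold a TTGCNNAA match in S100a9 and Ly6g and an NF-kB match in Ly6g and Ly6c1, and the S100a8 stretch holds neither. Lcn2, not printed, has a match to each. Of 32851 promoter windows of 300 bases in the same table, 10.8% hold TTGCNNAA, 50.8% hold the NF-kB motif and 8.30% hold the STAT letters TTCNNNGAA, which no member window in the table holds. The printed stretches are shorter than these windows, with 157 bases for S100a8. The full S100a8 window of 300 bases holds neither TTGCNNAA nor the NF-kB motif. A match is only a run of letters. Aligned locally, the Ly6g and Ly6c1 stretches were identical at 152 of 200 columns (76.0%), gaps counted as differences.

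Levels are in FPKM, a fragment count corrected for transcript length and sequencing depth, added up over the listed transcripts of a gene. A transcript listed in no event of a library is at 0 there, which can be a failed estimate rather than absence. The libraries listed 45795 to 54313 transcripts and 11190 to 12721 genes of at least 1 FPKM. The depth in reads is unknown. Fold changes are differences of group means of log2(FPKM + 1), which understate the change of low genes. In bulk tissue, fewer cells of a type and less RNA per cell cannot be told apart.

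No member was called in any of the 3 comparisons by limma with Benjamini-Hochberg adjustment over the 12578 genes with at least 1 FPKM in at least 4 libraries. Of the 7 members, 6 passed that filter and S100a8 did not, reaching 1 FPKM in 3 libraries. The background was 12.3% of tested genes called for DSS against control (280 genes or 2.23% higher, 1269 genes or 10.1% lower; 677 higher and 982 lower after median-of-ratios scaling of the libraries), 0.0557% for FGF1 against DSS and 0.0795% for FGF1 against control. Each member also had an exact two-sided permutation test without the filter, 21 tests in all, with a smallest possible p of 0.0286. These p-values are not adjusted. At an unadjusted limma p under 0.05, 3 members (Ly6g, S100a9 and Ly6c1) passed for DSS against control, beside 3483 of the 12578 genes, and none passed in the other comparisons.

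**Figure D1:**
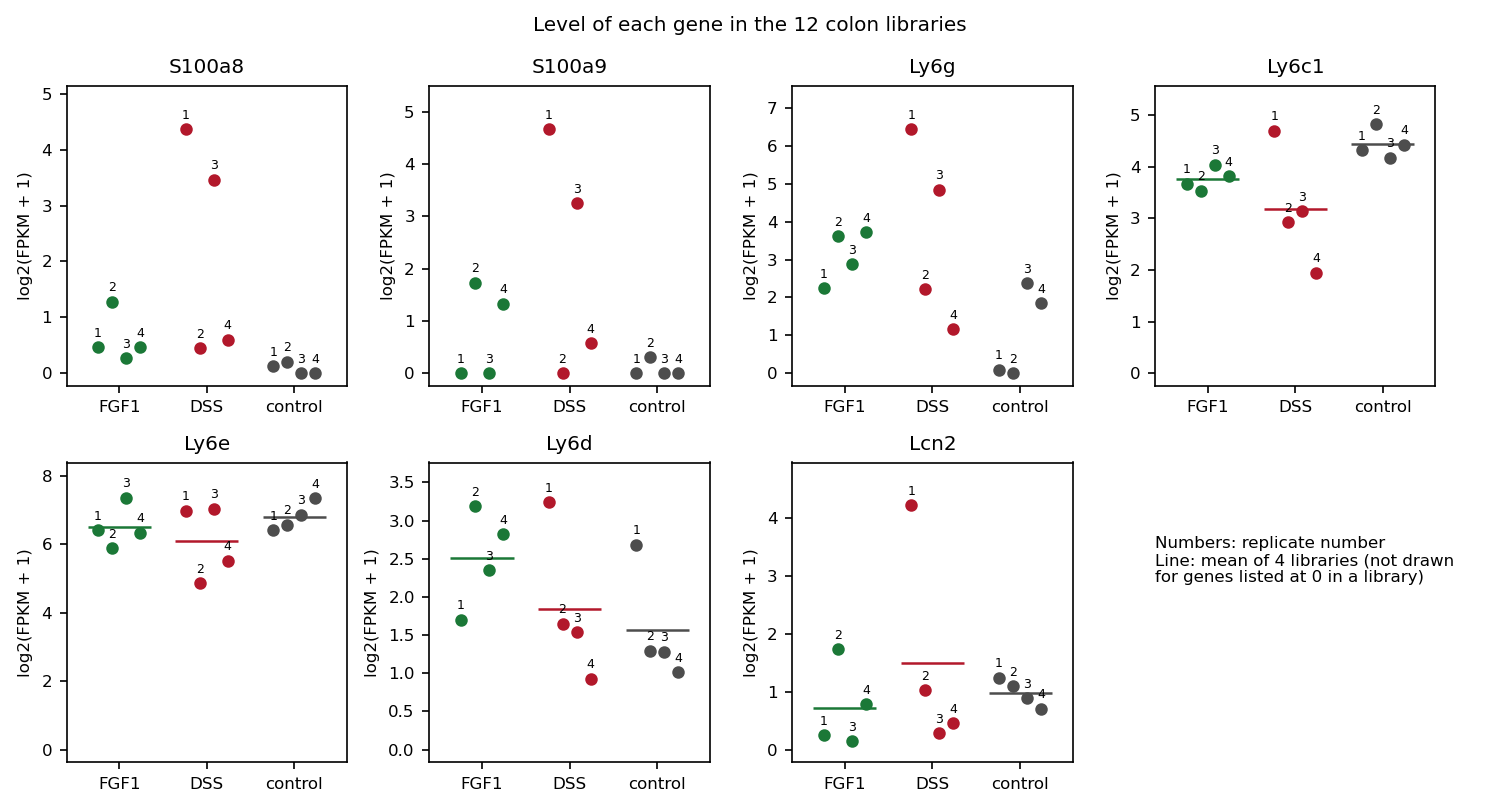
Level of each of the 7 genes as log2(FPKM + 1) in FGF1, DSS and control colon; points are single libraries with their replicate number, and lines are group means, drawn only for genes above 0 in every library. DSS 1 and DSS 3 stand above every other library in S100a8, S100a9 and Ly6g.

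The calprotectin genes were near 0 in control colon and high in DSS 1 and DSS 3. S100a8 was 0.375, 1.43, 0.204 and 0.375 FPKM in FGF1 libraries 1 to 4, 19.7, 0.365, 10.1 and 0.511 FPKM in DSS libraries 1 to 4, and 0.0897, 0.151, 0 and 0 FPKM in control libraries 1 to 4. Every DSS library and every FGF1 library was thus above every control library, but DSS 2 and DSS 4 lay within the range of the FGF1 libraries. Over all tested genes, 3.67% were higher in DSS than in control without overlap and 3.66% were higher in FGF1 than in control without overlap. S100a8 failed the filter and is not among those genes, and no such share was computed for genes as low. The difference was 2.14 log2 units for DSS against control and 0.53 for FGF1 against control, each with an exact permutation p of 0.0286. With a pseudocount of 0.1 these differences were 4.22 and 1.95 log2 units, at the same p. With any 1 control library left out the p was 0.171 for DSS against control and 0.0571 for FGF1 against control, at nearly the same differences. The groups still did not overlap, and with groups of unequal size an opposite regrouping can give a larger difference. The p stayed at 0.0286 with any 1 DSS library left out for DSS against control. It also stayed there with any 1 FGF1 library left out for FGF1 against control. FGF1 against DSS gave -1.61 (exact permutation p = 0.229), -0.89 without DSS 1 and, with a pseudocount of 0.1, -2.27.

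S100a9, the partner subunit, was listed in only some of the libraries. It was 0, 2.31, 0 and 1.51 FPKM in FGF1 libraries 1 to 4, 24.5, 0, 8.54 and 0.487 FPKM in DSS libraries 1 to 4, and 0, 0.239, 0 and 0 FPKM in control libraries 1 to 4. The groups overlapped in every comparison, with DSS 2 listed at 0 like 3 of the control libraries. DSS against control was 2.05 ± 0.85 log2 units (SE; limma adjusted p = 0.138), and 3.79 with a pseudocount of 0.1 (limma adjusted p = 0.150). Without DSS 2 the value was 2.76 (limma adjusted p = 0.0433), so this 1 library decides which side of the threshold it takes, and without DSS 1 it was 1.2 (limma adjusted p = 0.261). FGF1 against DSS was -1.36 ± 0.85 (limma adjusted p = 0.546; -0.51 without DSS 1 and -2.07 without DSS 2), and FGF1 against control was 0.69 ± 0.85 (limma adjusted p = 0.777).

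The subunits had similar patterns: over the 12 libraries Pearson's r between S100a8 and S100a9 on the log scale was 0.97 and Spearman's rho 0.85, a description in which the libraries of a group share their treatment and DSS 1 and DSS 3 stand apart. Summed, the pair reached 44.2 FPKM in DSS 1 and 18.6 FPKM in DSS 3, at most 0.998 FPKM in the other DSS libraries, at most 3.74 FPKM in FGF1 libraries and at most 0.390 FPKM in control libraries. Where levels were high, S100a8-201 carried most of the S100a8 value, holding 95.1% of the S100a8 FPKM in DSS 1 and 96.1% in DSS 3.

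Ly6g, the neutrophil surface marker, shared its high DSS libraries with the calprotectin genes and was more even in the FGF1 group. It was 3.72, 11.2, 6.36 and 12.2 FPKM in FGF1 libraries 1 to 4, 86.6, 3.63, 27.7 and 1.23 FPKM in DSS libraries 1 to 4, and 0.0648, 0, 4.16 and 2.6 FPKM in control libraries 1 to 4. DSS 1 and DSS 3 were again the highest of all, while DSS 2 and DSS 4 lay within the control range. DSS 2 was above DSS 4 in Ly6g but below it in both calprotectin genes. Over the 12 libraries Ly6g had a Pearson's r of 0.83 with S100a8 and 0.85 with S100a9. Spearman's rho was 0.65 and 0.60, below the rho between the calprotectin genes. DSS against control was 2.59 ± 0.99 log2 units (limma adjusted p = 0.108), and 3.99 with a pseudocount of 0.1 (limma adjusted p = 0.0850). Without DSS 4 it was 3.43 (limma adjusted p = 0.0457), and without DSS 1 it was 1.66 (limma adjusted p = 0.206).

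For FGF1 against control, Ly6g differed by 2.04 ± 0.99 log2 units (limma adjusted p = 0.389). FGF1 libraries were higher in 15 of 16 pairs of libraries, and the exact permutation p was 0.0571. FGF1 against DSS was -0.55 ± 0.99 (limma adjusted p = 0.859), and without DSS 1 its sign turned, to 0.37. A single transcript, Ly6g-202, carried the value in every library where Ly6g was listed, and control 3 had 4.16 FPKM of Ly6g with both calprotectin genes listed at 0.

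**Figure D2:**
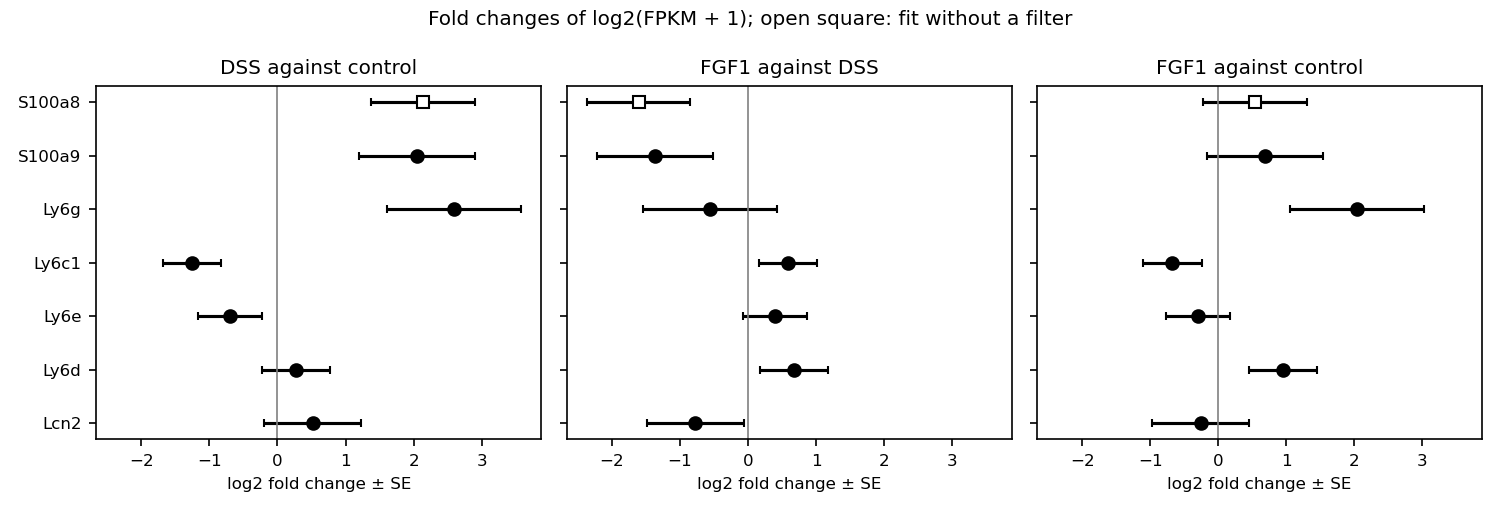
Log2 fold changes of the 7 genes with their standard errors, from differences of log2(FPKM + 1) over 4 libraries per group; the open square marks S100a8, taken from a fit without the filter on low values. S100a8, S100a9 and Ly6g lie above 0 for DSS against control and Ly6c1 and Ly6e below it, and no value passed the adjusted threshold.

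Lcn2 was high in DSS 1 alone. It was 0.185, 2.32, 0.104 and 0.722 FPKM in FGF1 libraries 1 to 4, 17.7, 1.04, 0.217 and 0.375 FPKM in DSS libraries 1 to 4, and 1.37, 1.13, 0.854 and 0.633 FPKM in control libraries 1 to 4. DSS 3, second highest in calprotectin, was below every control library. DSS against control was 0.51 ± 0.71 log2 units (limma adjusted p = 0.696) and turned to -0.39 without DSS 1. FGF1 against DSS was -0.77 ± 0.71 (limma adjusted p = 0.702) and FGF1 against control -0.26 ± 0.71 (limma adjusted p = 0.916).

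The low Lcn2 values rest on a transcript that was not always listed. Lcn2-201, the protein-coding form of 6 exons, was listed in 8 of 12 libraries and held 16.5 FPKM of the gene's 17.7 in DSS 1. It was at 0 in FGF1 1, FGF1 3, DSS 3 and DSS 4, where only retained-intron and processed forms were listed. Whether those 4 zeros are absence or a failed estimate was not tested.

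Ly6c1 was lowest in the DSS group apart from DSS 1. It was 11.7, 10.6, 15.5 and 13.1 FPKM in FGF1 libraries 1 to 4, 25.0, 6.61, 7.80 and 2.85 FPKM in DSS libraries 1 to 4, and 19.0, 27.3, 17.1 and 20.6 FPKM in control libraries 1 to 4. Group means were 12.7 ± 2.09 FPKM in FGF1, 10.6 ± 9.85 in DSS and 21.0 ± 4.46 in control (SD, n = 4 each). All 4 FGF1 libraries were below all 4 control libraries, a difference of -0.67 ± 0.43 log2 units (exact permutation p = 0.0286, limma adjusted p = 0.518), beside 6.61% of tested genes that were lower without overlap in that comparison. DSS against control was -1.26 ± 0.43 (limma adjusted p = 0.0727), and without DSS 1 it was -1.77 (limma adjusted p = 0.00292). FGF1 against DSS was 0.59 ± 0.43 (limma adjusted p = 0.609; 0.18 without DSS 4 and 1.1 without DSS 1).

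The gene's assignment is uncertain. Of the 50-base words of its main transcript Ly6c1-201, 36.7% also occur in transcripts of other genes, most of them in Ly6c2, so reads could be split between them. Words of S100a8, S100a9, Lcn2, Ly6d and Ly6e transcripts were not shared, and Ly6g-202 shared 0.448%. Ly6c2 itself fell in DSS colon, with 0.260 to 1.11 FPKM in FGF1, 0 to 1.86 FPKM in DSS and 1.83 to 5.80 FPKM in control (DSS against control -1.62 ± 0.36 log2 units, limma adjusted p = 0.0161).

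Markers of blood vessel endothelium were lower in DSS than in control, as Ly6c1 was in the DSS libraries other than DSS 1. Of 10 tested genes of that list, 9 were called lower in DSS than in control and none higher (Cdh5, Emcn, Eng, Esam, Kdr, Pecam1, Plvap, Tie1 and Vwf), with a median of -1.26 log2 units beside -0.07 over all tested genes. The 11 listed genes summed to 24.9 to 44.6 FPKM in FGF1, 9.38 to 39.2 FPKM in DSS, with DSS 1 the highest, and 62.3 to 74.2 FPKM in control. DSS 1 was thus below every control library in that sum, while its Ly6c1 value of 25.0 FPKM lay within the control range. Plvap, which forms the diaphragms of fenestrated capillaries, fell most in that list, by 2.31 ± 0.39 log2 units (limma adjusted p = 0.0050). The part of this list in the Ly6c1 values was not tested.

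Ly6e had the highest level of the 7 genes in every library and no called change. It was 83.6, 58.0, 164 and 79.9 FPKM in FGF1 libraries 1 to 4, 125, 28.0, 130 and 44.7 FPKM in DSS libraries 1 to 4, and 84.2, 94.3, 115 and 161 FPKM in control libraries 1 to 4. Means were 96.3 ± 46.3 FPKM in FGF1, 82.0 ± 53.2 in DSS and 114 ± 34.1 in control (SD, n = 4 each), and neighbouring groups differed by less than these SDs. DSS against control was -0.70 ± 0.47 log2 units (limma adjusted p = 0.371; -0.29 without DSS 2), FGF1 against DSS 0.40 ± 0.47 (limma adjusted p = 0.769) and FGF1 against control -0.30 ± 0.47 (limma adjusted p = 0.833; -0.10 without FGF1 2 and -0.59 without FGF1 3).

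The transcript that carried Ly6e changed between libraries of the same group. Ly6e-215, a coding form, held from 1.67% of the gene's FPKM in DSS 2 to 91.6% in FGF1 1, and Ly6e-209, a retained-intron form, held from 1.71% in FGF1 1 to 61.3% in control 4. Ly6e-208 held 41.3 FPKM in DSS 1 and at most 5.23 FPKM in any other library. These shares come from the deposited transcript estimates, and no isoform shift between groups was tested.

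**Figure D3:**
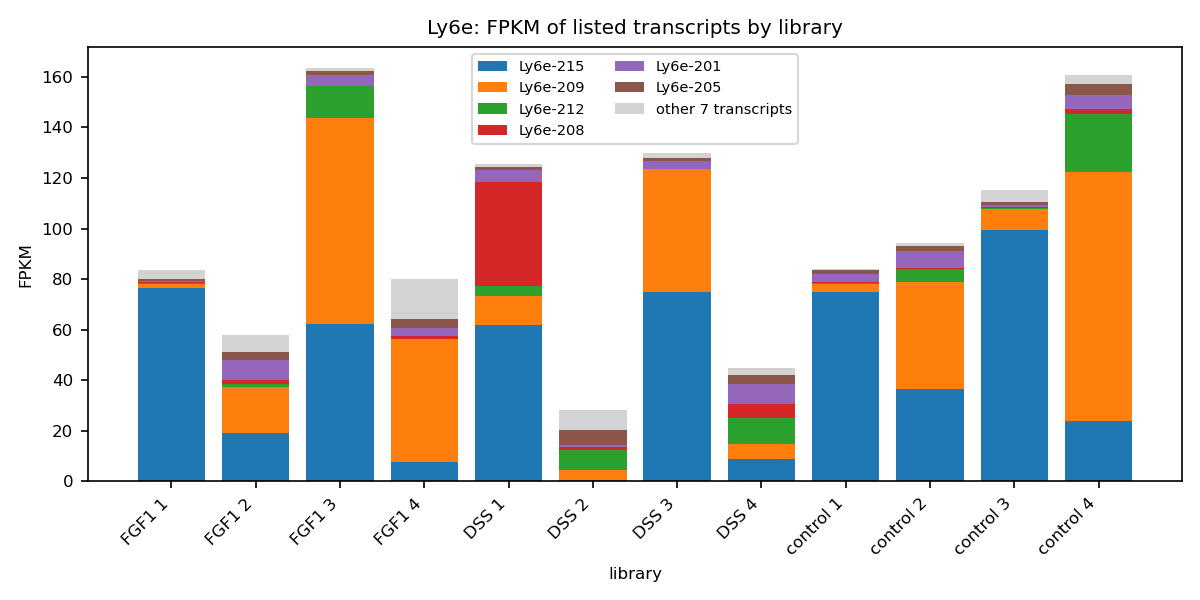
FPKM of the Ly6e transcripts stacked by library, with the 6 most abundant transcripts coloured and the other 7 in grey. Ly6e-215 and Ly6e-209 lead in most libraries but not in the same proportion within any group, and Ly6e-208 is prominent in DSS 1 only.

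Ly6d was low throughout. It was 2.25, 8.11, 4.11 and 6.06 FPKM in FGF1 libraries 1 to 4, 8.46, 2.14, 1.91 and 0.904 FPKM in DSS libraries 1 to 4, and 5.43, 1.45, 1.43 and 1.02 FPKM in control libraries 1 to 4. FGF1 libraries were higher than control libraries in 14 of 16 pairs, with a difference of 0.95 ± 0.50 log2 units (exact permutation p = 0.0857, limma adjusted p = 0.431). FGF1 against DSS was 0.67 ± 0.50 (limma adjusted p = 0.621; 0.37 without DSS 4 and 1.14 without DSS 1). DSS against control was 0.27 ± 0.50 (limma adjusted p = 0.777) and turned to -0.19 without DSS 1.

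Both cell types that Ly6d marks were looked for. The squamous keratin gene Krt5 was at most 0.342 FPKM and Trp63, a regulator of stratified epithelium, at most 0.0402 FPKM in any library, so defining squamous markers were near 0. The 15 listed squamous genes summed to 16.6 to 37.9 FPKM in FGF1, 6.86 to 57.6 FPKM in DSS and 13.1 to 31.4 FPKM in control, mostly Sprr1a, and none of 3 tested was called. The 8 B cell genes summed to 1.52 to 3.67 FPKM in FGF1 and 1.66 to 2.82 FPKM in control. In DSS they summed to 9.61, 1.31, 6.59 and 0.470 FPKM in libraries 1 to 4, and neither of 2 tested genes (Cd79a and Cd79b) was called. The part of these cells in the Ly6d values was not tested.

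The members were set beside a list of 30 neutrophil genes that itself includes S100a8, S100a9, Ly6g and Lcn2. Of that list, 27 genes were listed and 4 tested (S100a9, Ly6g, Lcn2 and Cd177), with none called in any comparison. Among the tested genes only Cd177 is not a member, so the calls largely repeat the members' own results. Other genes of the list were mostly low: of the 23 listed genes that are not members, 6 reached 1 FPKM in any library. Among the low ones, Csf3r, the receptor for granulocyte colony-stimulating factor, reached 0.222 FPKM, Cxcr2, the receptor for neutrophil-attracting chemokines, 0.177 FPKM, and Mpo, myeloperoxidase, 0.0472 FPKM. Among the higher ones, Itgam, an integrin subunit of myeloid cells, reached 2.21 FPKM in DSS 1, and Mmp9, a granule protease gene, reached 1.14 FPKM in DSS 1, against 1.15 FPKM in control 1 and 1.37 FPKM in control 2. In all, 14 of the 23 listed genes other than the members had their highest value in DSS 1, 4 in FGF1 4 and 1 in DSS 3. The share of all genes with their highest value in DSS 1 was not computed, so the count has no background. Retnlg, a resistin-like gene of neutrophils, was 4.38 FPKM in DSS 1 and 1.43 FPKM in DSS 3, at most 0.272 FPKM in FGF1 libraries and at 0 in all control libraries. Ngp, a granule protein gene, was 1.26 FPKM in DSS 1 and at 0 in all FGF1 and control libraries.

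Cd177, a neutrophil surface gene in other settings, did not follow the list. It had 74.1 to 102 FPKM in FGF1, 23.7 to 45.2 FPKM in DSS and 36.5 to 94.5 FPKM in control, with the DSS group lowest (FGF1 against DSS 1.35 log2 units, limma adjusted p = 0.0712; DSS against control -0.75, limma adjusted p = 0.0743). Every FGF1 library was above every DSS library, as was so for 4.45% of tested genes.

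**Figure D4:**
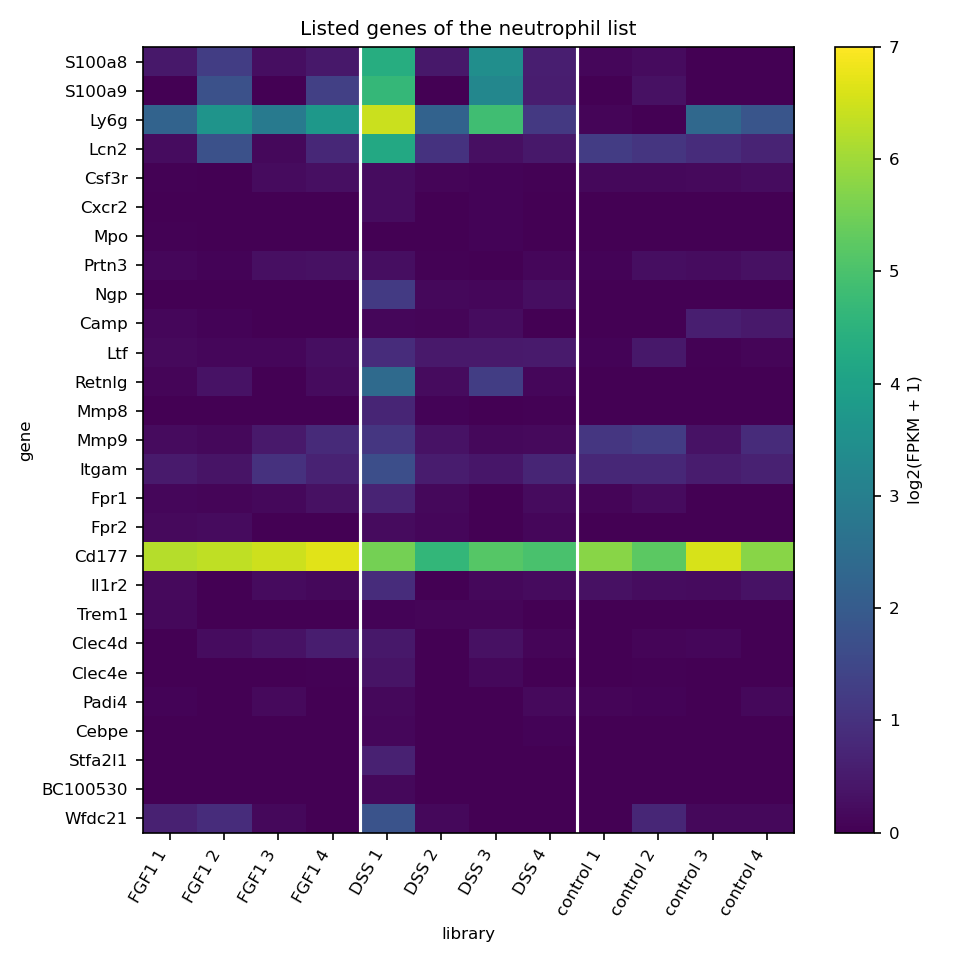
Heat map of log2(FPKM + 1) for the 27 listed genes of the neutrophil list (rows) in the 12 libraries (columns), from FGF1 on the left to control on the right. S100a8, S100a9, Ly6g and Retnlg are brightest in DSS 1 and DSS 3, Cd177 is bright everywhere, and Mpo, Cxcr2 and Csf3r are dark throughout.

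The libraries with high calprotectin and Ly6g also stood apart in blood genes. The 7 red blood cell genes summed to 14.4 to 49.4 FPKM in FGF1 and 17.3 to 85.6 FPKM in control, and in DSS libraries 1 to 4 to 568, 43.8, 397 and 33.6 FPKM. Hbb-bs, a beta globin gene, alone had 192 FPKM in DSS 1 and 141 FPKM in DSS 3 against at most 25.9 FPKM in any other library. None of the 4 tested genes of that list was called for DSS against control (median 1.91 log2 units). The same 2 of 4 DSS libraries were highest in calprotectin, Ly6g, globin and B cell genes. The part of blood in the neutrophil values was not tested.

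**Figure D5:**
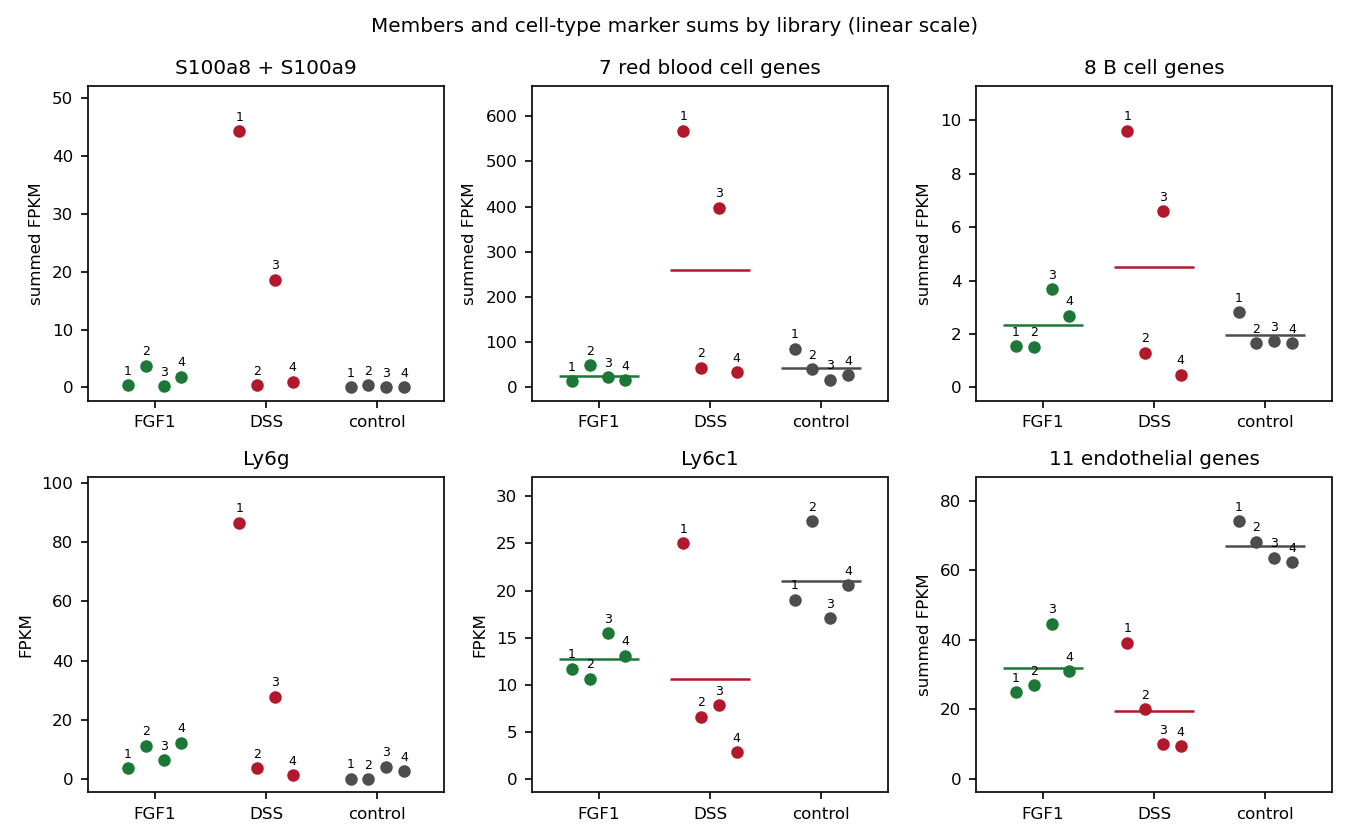
FPKM by library on a linear scale for summed S100a8 and S100a9, Ly6g and Ly6c1 and for summed genes of red blood cells, B cells and blood vessel endothelium; points are single libraries with their replicate number, and lines are group means, left out where a value is 0. DSS 1 and DSS 3 are high in the calprotectin, Ly6g, red cell and B cell panels, and all 4 control libraries are above all others in the endothelial panel.

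Signals that draw neutrophils were low. Of 18 attractant and cytokine genes, 17 were listed and only Tnf was tested (DSS against control 0.22 log2 units, limma adjusted p = 0.593). Their sum was 2.16 to 5.82 FPKM in FGF1, 3.10 to 15.2 FPKM in DSS and 2.28 to 2.87 FPKM in control. DSS 1 was the highest, with 3.19 FPKM of Il1b, 2.33 FPKM of Cxcl2 and 1.23 FPKM of Cxcl3. In DSS 3, Il1b was 1.87 FPKM and Cxcl2 was at 0.

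Genes on the receiving side of these proteins were read from the same fit. Of 5 tested calprotectin receptor genes, 1 fell in DSS colon: Cd36, a fatty acid transporter that also binds calprotectin, had 0.922 to 3.39 FPKM in FGF1, 0.278 to 4.12 FPKM in DSS and 2.64 to 13.4 FPKM in control (DSS against control -1.70 ± 0.47 log2 units, limma adjusted p = 0.0370). Tlr4, the toll-like receptor through which calprotectin signals, had -0.27 log2 units (limma adjusted p = 0.390). Slc22a17, the only tested lipocalin receptor gene, had -0.59 log2 units (limma adjusted p = 0.176), and Lrp2, the other receptor, was at most 0.0149 FPKM.

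In the epithelial programme that interleukins 17 and 22 and STAT3 drive, to which Lcn2 is commonly assigned, 3 of 20 tested genes rose in DSS colon and none fell, with a median of 0.13 log2 units. All 3 were serum amyloid A genes. For FGF1 against DSS none of the 20 was called, except that after median-of-ratios scaling Saa1, a serum amyloid A gene, was called lower in FGF1. Saa3, an acute-phase protein gene, had 9.52 to 64.1 FPKM in FGF1, 53.0 to 148 FPKM in DSS and 5.35 to 18.9 FPKM in control (DSS against control 3.05 ± 0.53 log2 units, limma adjusted p = 0.00567). Its values in DSS libraries were above the control range without overlap, as were those of 3.67% of tested genes. Lcn2 values overlapped, with its transcript Lcn2-201 listed at 0 in DSS 3 and DSS 4.

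In the wider families few genes were called. Of 11 tested S100 genes other than the calprotectin pair, none was called in any comparison, with a median of -0.02 log2 units for DSS against control, except that after median-of-ratios scaling S100a10, a partner of annexin A2, was called higher in DSS and the median was 0.12. S100a6, a calcium-binding protein gene of epithelium and stroma, averaged 791 FPKM in FGF1, 672 in DSS and 505 in control, and its change for DSS against control was 0.41 log2 units (limma adjusted p = 0.182). Of 11 tested genes in the Ly6 and uPAR family, Ly6c2 alone was called, in DSS against control. Lypd8, a secreted family member that keeps flagellated bacteria off the colon epithelium, averaged 5048 FPKM in FGF1, 5172 in DSS and 4898 in control (DSS against control 0.12 log2 units, limma adjusted p = 0.810).

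Markers of other cells in the sample are given for the libraries used. Of 11 tested monocyte and macrophage genes, 7 fell in DSS colon and none rose (median -1.08 log2 units), among them C1qb, a complement gene of resident macrophages, by 2.17 ± 0.31 (limma adjusted p = 0.00330). All 8 tested fibroblast genes fell (median -2.66), and 3 of 8 smooth muscle genes did (median -1.82; 2 of 8 after median-of-ratios scaling). Of 10 tested colon epithelial genes, Lgals4 rose and none fell (median 0.12), and the list summed to 6995 to 8889 FPKM in FGF1, 6808 to 8639 FPKM in DSS and 6289 to 6981 FPKM in control. No gene of these lists was called for FGF1 against DSS or FGF1 against control. With DSS 3 and DSS 4 left out together, 168 genes were called for DSS against control, against 1549 with all libraries.

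Genes whose level pattern was most like that of a tested member over the 12 libraries were named by Pearson's r on the log scale, as a description. For S100a9 they were Snx5 (0.94), Dnajc2 (0.93) and Uvssa (0.93), and for Ly6g Samd10 (0.96), Rbmx (0.96) and Noxo1 (0.96). For Ly6c1 they were Smoc1 (0.96), Arnt (0.95) and Vgll4 (0.95), and for Ly6e Tmem126b (0.88), 2010111I01Rik (0.87) and Mrrf (0.86). For Ly6d they were Gm49661 (0.89), Alpi (0.88) and Mboat1 (0.88), and for Lcn2 Sestd1 (0.96), Endov (0.91) and Ap4e1 (0.90). Most of these vary over a far narrower range than the member, as Sestd1 with 5.43 to 6.30 FPKM in FGF1, 5.69 to 8.31 in DSS and 5.95 to 6.33 in control. Spearman's rho for the same pairs ran from 0.57 (Endov with Lcn2) to 0.96 (Smoc1 with Ly6c1). Lcn2 was high in DSS 1 alone, so its Pearson values lean on that library.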

How the data were processed

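Messenger RNA of 12 mouse colon samples was sequenced; the labels name oligo(dT) beads and an input of 5 µg. The submitters' processing notes name HISAT2 2.0.4, StringTie 1.3.4d, cutadapt 1.9, edgeR and the build GRCm38, without their roles. The authors deposited FPKM per transcript in a table of transcript structure events, used here without further scaling. A gene's level is the sum over its distinct listed transcripts. Gene positions and symbols are from GENCODE vM21. Samples were grouped by their treatment label.

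Genes with at least 1 FPKM in at least 4 of 12 libraries were fitted in R 4.3.3 with limma 3.58.1 on log2(FPKM + 1), two-sided with a mean-variance trend and all groups in a single model. Benjamini-Hochberg adjustment ran over 12578 genes, with calls made at adjusted p below 0.05. The fit was tested on simulated data and the permutation test on fixed values of separated groups. FPKM steps did not give whole reads (45.5% to 58.4% of low values within 0.05 of a step), so no count model was run. All 7 members are named, and per list at most the 4 largest called changes by rule; all 9 called endothelial genes are named beyond it. Other list genes were named after their values were seen. The members, lists and tests were chosen with earlier results of these data known. Protein sequences were not used here. Shared words were counted over 50-base words of annotated transcripts. Alternatives covered the filter, pseudocount (0.1), start-event values, scaling, trend, groups fitted, a replicate block and left-out libraries.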

Additional observations from a re-analysis of the deposited data

Results flagged for a closer look

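In 5 of 21 groups of 4 values, 1 library lay far from the other 3 by Dixon's ratio. Its cutoff is passed by chance in about 1 of 20 groups only where values are normally distributed. Unlogged FPKM values were used here and some are 0, so no excess over chance can be read from this count. Lcn2 in DSS 1 was 17.7 FPKM, against 0.217 to 1.04 FPKM in the other DSS libraries. Ly6d in DSS 1 was 8.46 FPKM, against 0.904 to 2.14 FPKM in the other DSS libraries. Ly6d in control 1 was 5.43 FPKM, against 1.02 to 1.45 FPKM in the other control libraries. S100a8 in FGF1 2 was 1.43 FPKM, against 0.204 to 0.375 FPKM in the other FGF1 libraries. S100a9 in control 2 was 0.239 FPKM, and the other control libraries were listed at 0, which by itself puts the ratio at its highest.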

How the results depend on the processing

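For DSS against control, 1549 genes were called, against 727 with start-event values (sums over transcripts with a start event in that library), 168 without DSS 3 and DSS 4, and 692 to 1998 with 1 library left out. For FGF1 against DSS, 7 were called, against 1 with start-event values, 15 with median-of-ratios scaling, 3 with only the 2 groups fitted, 0 without DSS 3 and DSS 4, 2 without control 3 and FGF1 3, and 0 to 43 with 1 library left out. For FGF1 against control, 10 were called, against 50 with no filter, 0 with a pseudocount of 0.1, 1 with start-event values, 28 with no trend, 38 with only the 2 groups fitted, 38 without DSS 3 and DSS 4, 38 without control 3 and FGF1 3, and 1 to 83 with 1 library left out. With the replicate number as a block, 1028, 2 and 1 genes were called for DSS against control, FGF1 against DSS and FGF1 against control. No label says whether the numbers pair the samples. Correlations of same-numbered deviations ran between -0.217 and 0.399. Those of samples with different numbers were not computed, so these values cannot decide it.

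With 1 library left out, log2 differences for DSS against control ran from 1.42 to 2.73 for S100a8 (permutation, added after seeing the data), 1.2 to 2.76 for S100a9, 1.66 to 3.43 for Ly6g, -1.77 to -0.85 for Ly6c1, -1.01 to -0.29 for Ly6e, -0.19 to 0.65 for Ly6d and -0.39 to 0.92 for Lcn2. For FGF1 against DSS they ran from -2.2 to -0.89 for S100a8, -2.07 to -0.51 for S100a9, -1.39 to 0.37 for Ly6g, 0.18 to 1.1 for Ly6c1, 0.37 to 1.14 for Ly6d, -0.0123 to 0.71 for Ly6e and -1.18 to 0.14 for Lcn2, and for FGF1 against control from 0.31 to 0.65 for S100a8, 0.37 to 0.94 for S100a9, 1.68 to 2.47 for Ly6g, -0.76 to -0.54 for Ly6c1, -0.59 to -0.10 for Ly6e, 0.72 to 1.32 for Ly6d and -0.59 to -0.06 for Lcn2. S100a9 without DSS 2, Ly6g without DSS 4 and Ly6c1 without DSS 1 passed the limma threshold for DSS against control. Against control, S100a8 missed the permutation threshold without any 1 control library, though the groups did not overlap. It still passed that threshold without any 1 DSS or FGF1 library. Signs turned with 1 library left out only in the following cases. Without DSS 1 they turned for Ly6d and Lcn2 in DSS against control, and for Ly6g and Lcn2 in FGF1 against DSS. Without DSS 2 the sign of Ly6e turned in FGF1 against DSS. The sign of Ly6c1 for FGF1 against DSS turned with start-event values (-0.157 in both tests) and without DSS 3 and DSS 4 (-0.0477), and that of Lcn2 for FGF1 against control in the permutation test with start-event values (0.189). Lcn2 had no value in the limma fit of start-event values. Median-of-ratios scaling moved the median of all genes for DSS against control to 0.05 from -0.07 log2 units, gave 677 genes called higher and 982 lower, and turned no member's sign. With a pseudocount of 0.1, FGF1 against control was 1.71 for S100a9, 3.54 for Ly6g and -0.86 for Lcn2. Of the other alternatives run, none took a member past the threshold. The cause of these shifts was not tested. FPKM without reads leaves counting error unknown, and 4 libraries a group limit the permutation p.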
